A study of Mus musculus with 6 samples.

Results

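Zeb1, Zeb2, Snai1, Snai2, Twist1 and Twist2 encode the DNA-binding proteins best known for holding cells in a mesenchymal state. The 6 genes were chosen by name, with earlier results of these data known, and no measured value entered the rule. Every probe set that the platform annotation ties to exactly 1 of these symbols was taken, which gave 14 probe sets. The whole array names 18193 genes with such probe sets. RNA came from sarcoma cells of C57BL6/J mice, kept as cell lines, in 2 groups of 3 arrays, Dicer null (no working copy of the gene) and Dicer heterozygous (1 copy lost). The heterozygous cells are therefore no wild type, and both groups are tumour lines grown to confluence in serum. The deleted part of Dicer is not named. The design text speaks of 3 lines per genotype while titles number replicates, and nothing names the lines, so p-values measure only the spread between these samples. Values are log2 GCRMA intensities, in which 1 unit is a 2-fold step, and with 3 arrays per group their number limits the precision. Arrays of the null group correlated at 0.972 to 0.979 with each other. Heterozygous arrays spread more, at 0.935 to 0.973.

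Zeb1 and Zeb2 are zinc finger repressors that carry a homeodomain between their finger clusters, Snai1 and Snai2 (Snail and Slug) are zinc finger repressors with an N-terminal SNAG domain, and Twist1 and Twist2 are basic helix-loop-helix factors that bind DNA as dimers. Zeb and Snai proteins bind E-box motifs in the promoters of epithelial genes, E-cadherin (Cdh1) above all, and recruit corepressors such as CtBP, LSD1 and histone deacetylases. In fibroblasts and sarcomas these factors are part of the normal mesenchymal programme. The study's comparison asks what changes in such cells when Dicer, which cuts microRNA precursors to their mature form, is missing, and Zeb1 and Zeb2 are textbook targets of microRNAs of the miR-200 family.

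The mature miR-200 microRNAs are shown because they are the Dicer products most closely tied to Zeb1 and Zeb2 in epithelial cells. The arrays did not measure them. Sequences are RefSeq's (GRCm38.p6), written 5′ to 3′ with the seed, bases 2 to 8, in capitals. miR-200b, miR-200c and miR-429 share a seed, and miR-200a and miR-141 share another that differs from it at a single base.
miR-200b-3p: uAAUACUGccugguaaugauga
miR-200c-3p: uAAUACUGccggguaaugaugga
miR-429-3p: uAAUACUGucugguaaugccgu
miR-200a-3p: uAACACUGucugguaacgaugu
miR-141-3p: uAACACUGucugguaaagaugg

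The E-box CAGGTG, read on the other strand as CACCTG, is the form that Zeb and Snai proteins are known to bind. Both forms were counted in RefSeq windows of 300 bases around each gene's start (GRCm38.p6). At least 1 match was found in 20.2% of all 32851 windows. Of 38 epithelial junction, polarity and surface genes taken as targets of the repressors, 23 had windows, and Cdh1 had none. Of their 30 windows 22 held a match (73.3%). Some genes had several windows that overlap, so the same site can count more than once. The genes were chosen as known or thought targets, so the higher share is no test of the repressors. Of 7 windows of Zeb2, Snai1, Twist1 and Twist2, 1 held a match, that of Snai1. A match is a string of letters and not a measured binding site. The windows below are those of Ocln, Crb3 and Snai1. Ocln was the only such target called in these arrays, and Crb3 is a polarity gene known as a Zeb1 and Snail target. E-boxes stand in capitals.
Ocln (chr13:100552449-100552748, minus strand): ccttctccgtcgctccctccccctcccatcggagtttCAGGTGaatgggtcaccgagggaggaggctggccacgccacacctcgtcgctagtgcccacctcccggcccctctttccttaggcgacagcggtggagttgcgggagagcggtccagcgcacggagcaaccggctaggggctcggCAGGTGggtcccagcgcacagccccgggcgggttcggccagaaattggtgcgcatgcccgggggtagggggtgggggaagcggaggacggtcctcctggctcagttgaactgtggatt
Crb3 (chr17:57061951-57062250, plus strand): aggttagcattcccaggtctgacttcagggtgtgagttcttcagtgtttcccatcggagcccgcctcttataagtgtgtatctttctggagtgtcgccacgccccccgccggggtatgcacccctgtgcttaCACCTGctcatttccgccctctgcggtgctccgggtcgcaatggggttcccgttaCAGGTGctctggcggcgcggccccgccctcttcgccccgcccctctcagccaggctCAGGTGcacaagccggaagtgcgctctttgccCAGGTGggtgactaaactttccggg
Snai1 (chr2:167537945-167538244, plus strand): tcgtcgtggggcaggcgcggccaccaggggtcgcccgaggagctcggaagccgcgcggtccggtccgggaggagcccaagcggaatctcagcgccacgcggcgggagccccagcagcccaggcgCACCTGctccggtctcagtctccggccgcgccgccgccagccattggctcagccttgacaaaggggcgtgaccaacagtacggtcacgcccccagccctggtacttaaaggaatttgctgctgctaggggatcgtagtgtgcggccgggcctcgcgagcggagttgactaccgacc

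No probe set of the 6 genes passed the test between Dicer null and Dicer heterozygous arrays. Of the 14 probe sets 12 had a mean log2 value of at least 3 over the 6 arrays, the minimum for testing, and 0 of these 12 were called by limma at a Benjamini-Hochberg adjusted p under 0.05 over all 24385 tested probe sets. The background was 3.1% of all tested probe sets called, 1.62% higher and 1.48% lower in null arrays, so a count of 0 among 12 is near what that share gives. At an unadjusted p under 0.05 there were 4 of 12 member probe sets, against 23.2% of all tested. Of the 12, 7 had positive and 5 negative differences, with a median log2 difference of 0.25, against 0.03 over all tested probe sets. Zeb2 alone held 4 of the 7 positive ones and 3 of the 4 with an unadjusted p under 0.05. Probe sets of the same gene are not independent, so these counts are not counts of genes. In the same fit the series' title gene Nr6a1 rose (log2 difference 3.37, SE 0.20, limma adjusted p = 0.00647), and the brighter of the probe sets of Dicer1 gave 0.14 (adjusted p = 0.693).

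**Figure D1:**
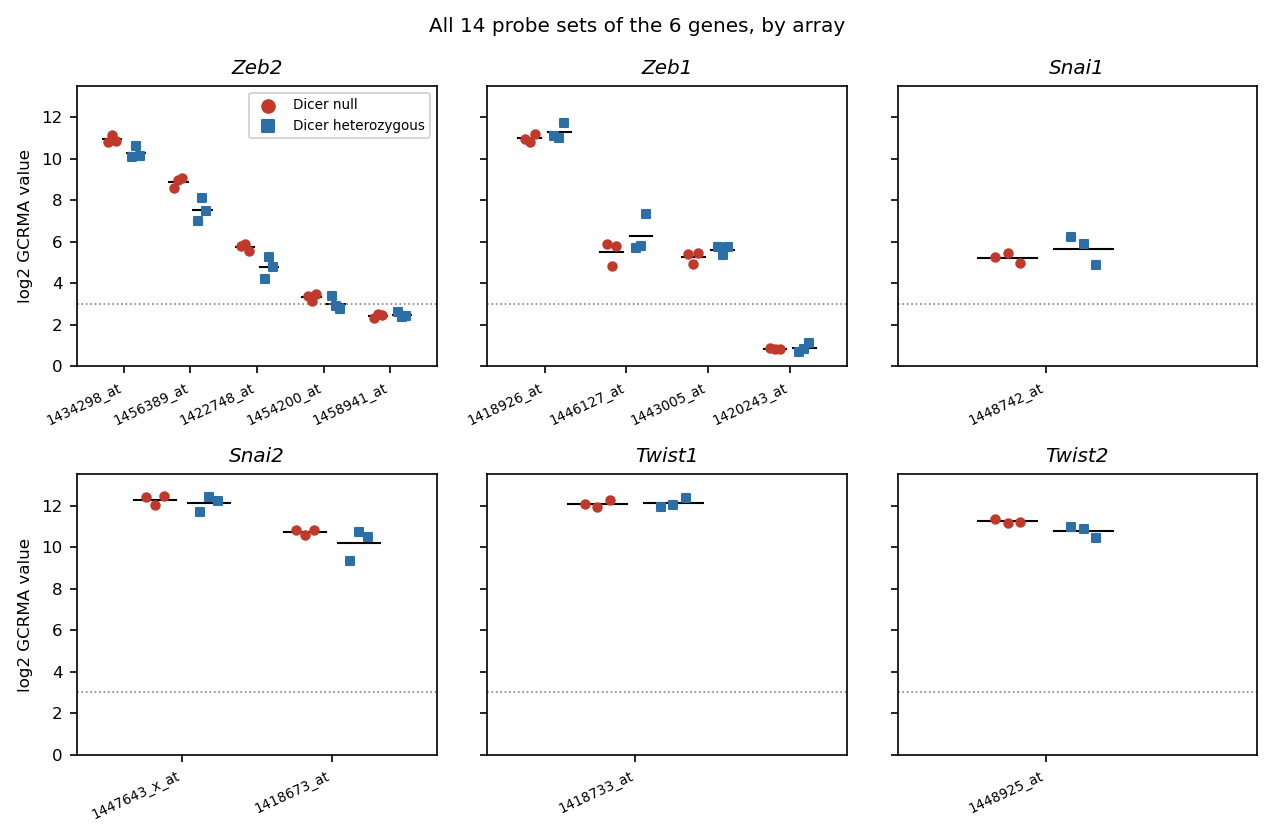
Log2 GCRMA values of all 14 probe sets of the 6 genes, with 1 point for each array (red circles Dicer null, blue squares Dicer heterozygous), black bars for group means (n = 3) and a dotted line at the minimum of 3 for testing. The null arrays lie above the heterozygous ones in 3 probe sets of Zeb2 and in that of Twist2, and the groups overlap in every other panel entry.

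Zeb2 had the largest positive differences of the 6 genes, but none of its probe sets was called. It is also known as Sip1, a partner of Smad proteins that is needed in neural crest and in myeloid cells. Its brightest probe set (1434298_at) read 10.82, 11.14 and 10.83 in null arrays, against 10.08, 10.63 and 10.14 in heterozygous arrays. The 2 groups did not overlap, and the gap between the lowest null and the highest heterozygous array was small. The fold was 1.57 (95% interval 1.09 to 2.25; log2 difference 0.65, SE 0.22; limma adjusted p = 0.147).

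The next probe set of Zeb2 (1456389_at) read 8.58, 8.97 and 9.09 in null arrays, against 6.99, 8.09 and 7.47 in heterozygous arrays. Every null array again lay above every heterozygous array. It gave the smallest p of all member probe sets, with a fold of 2.57 (95% interval 1.51 to 4.37; log2 difference 1.36, SE 0.32; limma adjusted p = 0.0734). The probe set annotated to Zeb2's RefSeq transcript (1422748_at) read 5.82, 5.88 and 5.57 in null arrays, against 4.23, 5.28 and 4.8 in heterozygous arrays, also without overlap. Its fold was 1.98 (95% interval 1.22 to 3.23; limma adjusted p = 0.117).

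Both dim probe sets of Zeb2 overlapped between the groups. The first (1454200_at) read 3.39, 3.16 and 3.48 in null arrays, against 3.39, 2.90 and 2.74 in heterozygous arrays (limma adjusted p = 0.42). The other (1458941_at) lay at background in all 6 arrays, between 2.32 and 2.60, and was not tested. The spread of the heterozygous group was wider than that of the null group in each of the 4 tested probe sets, with SDs of 0.30 to 0.55 in heterozygous and 0.16 to 0.27 in null arrays. For 1456389_at the log2 difference was 1.10 without heterozygous replicate 1 (limma adjusted p = 0.11) and 1.65 without heterozygous replicate 2 (0.0824). It was not called in any fit without 1 array.

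Zeb1 leaned the other way, by less than the spread between arrays. Its brightest probe set (1418926_at), annotated to the RefSeq transcript, read 10.97, 10.82 and 11.19 in null arrays, against 11.10, 11 and 11.73 in heterozygous arrays. Heterozygous replicate 3 was the highest array and the others overlapped. The log2 difference was -0.28 (95% interval -0.88 to 0.31; limma adjusted p = 0.533), and -0.06 without that array.

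A second probe set of Zeb1 (1446127_at) had 5.91, 4.83 and 5.82 in null arrays, against 5.69, 5.79 and 7.36 in heterozygous arrays, where replicate 3 again stood alone (log2 difference -0.76, SE 0.53, limma adjusted p = 0.438). Without that array the difference was -0.22. The third (1443005_at) had 5.43, 4.93 and 5.47 in null arrays, against 5.74, 5.36 and 5.73 in heterozygous arrays (limma adjusted p = 0.415). The last (1420243_at) lay between 0.67 and 1.13 in all 6 arrays and was not tested. The 3 tested probe sets all had negative differences, with overlapping groups in each.

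Snai1 and Snai2 did not pass either. Snai1, the factor whose loss stops mouse embryos at gastrulation, has 1 probe set (1448742_at), which read 5.26, 5.44 and 4.97 in null arrays, against 6.21, 5.89 and 4.86 in heterozygous arrays. The heterozygous arrays held both the highest values and the lowest one. The log2 difference was -0.43 (95% interval -1.33 to 0.47; limma adjusted p = 0.531). It was -0.83 without heterozygous replicate 3 (adjusted p = 0.103) and -0.15 without heterozygous replicate 1.

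Snai2, a neural crest and fibroblast factor, has 2 probe sets. The one annotated to the RefSeq transcript (1418673_at) read 10.82, 10.57 and 10.83 in null arrays, against 9.34, 10.72 and 10.48 in heterozygous arrays. Heterozygous replicate 1 was the lowest by more than 1 unit, and the log2 difference of 0.56 (SE 0.37, limma adjusted p = 0.418) shrank to 0.14 without it. The brighter one (1447643_x_at), whose suffix marks probes that can match other transcripts, read 12.40, 12.01 and 12.45 in null arrays, against 11.71, 12.42 and 12.24 in heterozygous arrays. Its difference was 0.16 (limma adjusted p = 0.735), and -0.04 without heterozygous replicate 1.

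Twist1, which patterns the skull and limbs, differed least. Its probe set (1418733_at) read 12.06, 11.95 and 12.26 in null arrays, against 11.91, 12.02 and 12.38 in heterozygous arrays. The groups covered nearly the same range, and the log2 difference was -0.01 with a 95% interval of -0.49 to 0.46 (limma adjusted p = 0.979). With arrays centred on their medians its sign turned, at 0.05.

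Twist2, also called Dermo1 after its role in the dermis, was higher in every null array. Its probe set (1448925_at) read 11.36, 11.16 and 11.23 in null arrays, against 10.95, 10.87 and 10.45 in heterozygous arrays. The fold was 1.41 (95% interval 1.02 to 1.95; log2 difference 0.49, SE 0.19), and with a limma adjusted p of 0.197 it did not pass. In all, 4 of the 12 tested member probe sets had null arrays wholly above heterozygous arrays and 0 lay wholly below. Among all tested probe sets 30.9% had groups without overlap: 16.3% lay wholly above and 14.6% wholly below, and 3 of the 4 belong to Zeb2.

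**Figure D2:**
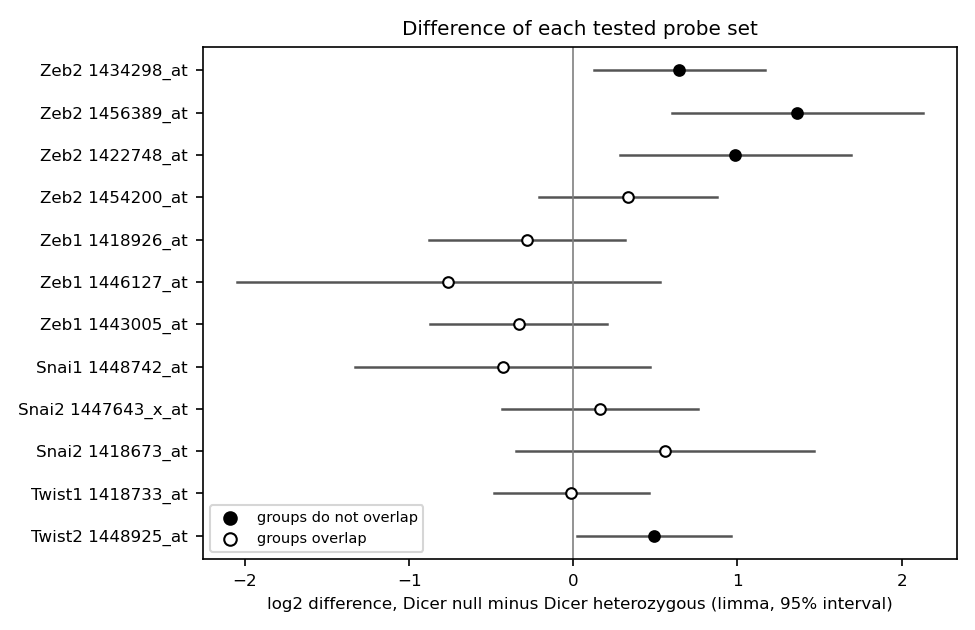
Log2 difference, Dicer null minus Dicer heterozygous, of the 12 tested probe sets with limma's 95% interval. Filled points mark probe sets whose groups did not overlap. The 4 filled points are 3 of Zeb2 and that of Twist2, and intervals of all the others include 0.

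Members of a pair were set against each other within each array, as the brightest probe set of the first minus that of the other, and 3 such contrasts were tested. These values compare shifts and not levels, since probe sets differ in affinity. Zeb1 minus Zeb2 was 0.15, -0.32 and 0.36 in null arrays, against 1.02, 0.37 and 1.59 in heterozygous arrays. All null values were lower, by 0.93 on average (two-sided exact permutation p = 0.1, adjusted p = 0.3), and 0.1 is the smallest p that 3 against 3 arrays can give. Snai1 minus Snai2 differed by -0.59 (exact p = 0.4, adjusted p = 0.4) and Twist1 minus Twist2 by -0.51 (exact p = 0.2, adjusted p = 0.3), both with overlapping groups. With 3 arrays per group this exact test could not pass 0.05, so it does not settle whether members of a pair shifted unequally.

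The genes most alike in pattern were taken by Pearson correlation over the 6 arrays for the members whose brightest probe set ranged over at least 1 log2 unit, Zeb2 and Snai1. With 6 points such values are high for many genes: 298 of 10960 candidate genes exceeded 0.9 for Zeb2 and 372 for Snai1. Nearest to Zeb2 were Dcakd (r = 0.995), the helicase Recql (0.992) and Mllt10 (0.991). Nearest to Snai1 were the mitochondrial glutamyl-tRNA synthetase Ears2 (0.996), Fra10ac1 (0.991) and the sodium-proton exchanger Slc9a5 (0.991). These are descriptions, and the arrays' group structure enters each of them.

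The cells expressed mesenchymal genes in both groups. Of 10 mesenchymal markers 9 had a mean of at least 3, led by vimentin (Vim), whose brightest probe set read 13.75, 13.71 and 13.73 in null arrays, against 13.75, 13.82 and 13.84 in heterozygous arrays, while Thy1 lay below 3. The summed log2 level of the 10 was 107 to 112 in null arrays and 115 to 116 in heterozygous arrays. None of the 9 tested was called, and 3 had an unadjusted p under 0.05 (limma), beside 24% of all tested genes. Their differences were positive in 2 and negative in 7, with a median of -0.33. In bulk RNA fewer cells of a type and less RNA per cell cannot be told apart.

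Markers of other cell types were mostly at background, but the highest of each list lay above it. Of 11 leukocyte markers on the array 10 lay below 3 (summed level 23.6 to 25.5 in null and 24.0 to 26.1 in heterozygous arrays), Ptprc and Csf1r among them, and only Cd68 was tested. Of 10 endothelial markers 9 lay below 3, Pecam1 and Cdh5 among them, with sums of 23.7 to 24.5 in null and 23.6 to 24.7 in heterozygous arrays, and Egfl7 was the highest. Of 8 such markers of neural crest and glia 6 lay below 3, Sox10 among them. Sums were 23.9 to 25.6 in null and 24.8 to 28.2 in heterozygous arrays. Mitf, the highest, read 9.52, 9.24 and 10.62 in null arrays, against 8.96, 8.36 and 10.17 in heterozygous arrays. The other of the 2 tested markers of that list had a negative difference. The median of the 2 was -0.53, and neither was called. Of 10 epithelial markers 6 lay below 3, and the sums ran from 26.04 to 33.3 in null and from 24.6 to 38.0 in heterozygous arrays. Krt19 was the highest of them, and Cdh1, Cldn4, Cldn7, Esrp1 and Grhl2 lay below 3.

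Heterozygous replicate 1 stood apart in some epithelial genes and not in others. Krt18, a keratin, read 2.23, 2.68 and 2.0 in null arrays, against 9.02 in that array and 2.09 and 2.17 in replicates 2 and 3 of its group. That array also had the highest epithelial sum. Epcam, an epithelial adhesion protein, was instead highest in null replicate 2, at 5.21, against 3.55 in heterozygous replicate 1, and within the heterozygous group that replicate was the lowest for Cdh3 and Cldn1, whose values are given below. It was also the lowest of all 6 arrays for Snai2 in both probe sets and for Zeb2 in its 3 brightest. Krt18 and Epcam were picked out after their values were seen. The part of these epithelial transcripts in the differences of Zeb2 and Snai2 was not tested beyond the values given above without that array.

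Among epithelial junction, polarity and surface genes that the repressors are known or thought to hold down, 1 of 21 tested changed. The list had 38 genes, 37 of them on the array, and 16 of these lay below the minimum. Its median log2 difference was 0.14, against -0.01 over all 11425 tested genes, of which 3.46% were called (1.45% higher and 2% lower). At an unadjusted p under 0.05 there were 7 of the 21, against 24% of all tested genes. Cdh1, the textbook target, read 2.87, 2.67 and 1.93 in null arrays, against 3.20, 2.11 and 2.38 in heterozygous arrays, around the background in both groups. Crb3 reached at most 2.80 on its brightest probe set.

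Ocln, which encodes the tight junction protein occludin, was called as higher in null arrays. Its mean over the 6 arrays was 3.02, so it passed the minimum for testing only through the null arrays. It read 4.11, 5.81 and 3.97 in null arrays, against 1.69, 1.27 and 1.25 in heterozygous arrays, which all lay at background. The rise was at least 3.10-fold when the heterozygous group is set at a log2 value of 3 (log2 difference 3.23, SE 0.51, limma adjusted p = 0.0356). A second, dimmer probe set was at least 2.06-fold higher by the same floor and was not tested. The call held only without null replicate 2 (0.0451), and without any other single array the adjusted p was 0.0573 to 0.107. With no minimum the limma adjusted p was 0.0505, and at a minimum mean of 4 the gene was not tested.

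Other genes of that list had differences of either sign and did not pass. Dsp, the desmosome protein desmoplakin, read 8.62, 8.76 and 9.04 in null arrays, against 7.43, 3.07 and 1.92 in heterozygous arrays, with replicate 1 the highest of its group (limma adjusted p = 0.114). P-cadherin, Cdh3, read 7.68, 5.53 and 5.26 in null arrays, against 3.23, 3.30 and 3.52 in heterozygous arrays (adjusted p = 0.0691). Cldn1, a claudin, lay at background in null arrays, at 1.73, 2.22 and 1.54, against 3.72, 6.41 and 7.12 in heterozygous arrays, at least 6.73-fold lower with the null group set at 3 (adjusted p = 0.0646). These 3 genes were picked out after their values were seen. Without heterozygous replicate 1 Dsp was called as higher (limma adjusted p = 0.00633) and Cldn1 as lower (0.00809). Each had the lower group's mean below 3, so no exact fold is given, and Cldn1 passed the minimum only through heterozygous arrays. For both genes the array left out was the one of its group nearest to the null arrays. In the fit without null replicate 1, which stood apart from its group, Cdh3 was called as higher (log2 difference 2.04, limma adjusted p = 0.039). Leaving out such arrays favours a call, so these fits are not read as support for a difference. Of the 21 tested genes 5 had null arrays wholly above heterozygous arrays and 3 wholly below, beside 16.3% and 14.6% of all tested probe sets.

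**Figure D3:**
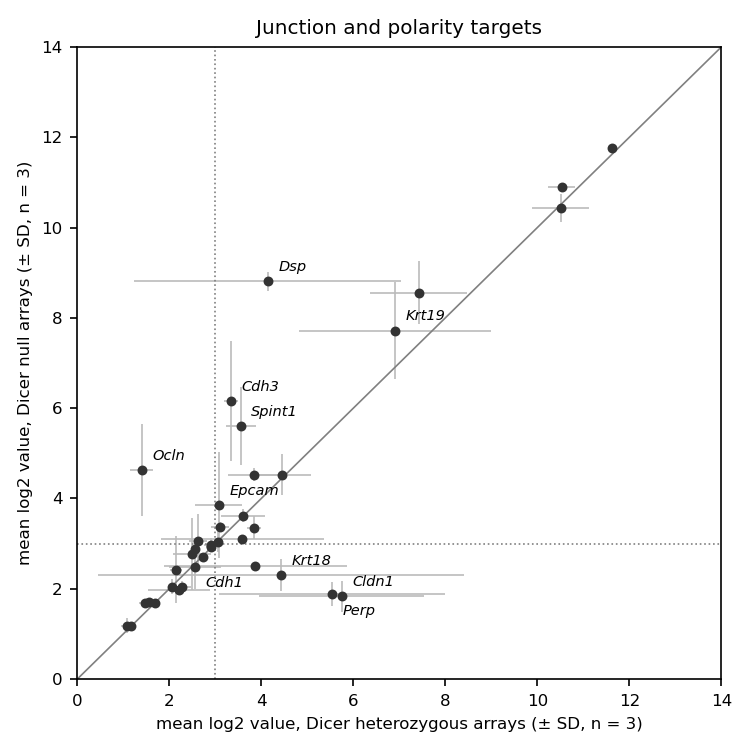
Mean log2 value of each of the 37 junction and polarity genes in Dicer null arrays (vertical axis) and in Dicer heterozygous arrays (horizontal axis), with SD over 3 arrays each. Dotted lines mark a value of 3 and the diagonal marks equal means. Most genes sit near or under 3 on both axes, Ocln lies above the diagonal, and Krt18 has a wide horizontal bar from 1 heterozygous array.

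Epithelial transcription and splicing factors, several of which oppose Zeb and Snai, had 0 of 5 tested genes called and 2 at an unadjusted p under 0.05 (limma), beside 24% of all tested genes. Esrp1 and Grhl2, partners in mutual repression with Zeb1, lay at background in both groups. Klf4, which activates Cdh1 in epithelia, had the smallest p: it read 9.74, 10.01 and 9.43 in null arrays, against 10.44, 11.10 and 10.76 in heterozygous arrays (log2 difference -1.04, SE 0.25, limma adjusted p = 0.0776). Its other probe set was also lower in every null array and did not pass (-1.23, limma adjusted p = 0.0527).

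Mesenchymal genes had 2 of 28 tested members called, both lower in null arrays, where 2% of all tested genes were called lower. With so few calls the count is not read as particular to the list. Acta2, smooth muscle actin, read 7.86, 6.22 and 4.96 in null arrays, against 13.10, 12.71 and 12.92 in heterozygous arrays (log2 difference -6.56, SE 0.69, limma adjusted p = 0.0169). The groups were far apart on this probe set, while a dimmer one differed by 0.50 in the other direction (adjusted p = 0.293). Tagln, which encodes transgelin, read 5.93, 5.08 and 5.20 in null arrays, against 11.93, 9.19 and 10.90 in heterozygous arrays (-5.27, SE 0.69, limma adjusted p = 0.0238). Acta2 was not called without heterozygous replicate 2 (0.0569) or null replicate 2 (0.0795), nor Tagln without null replicate 1 (0.06), 2 (0.0968) or 3 (0.0979). The list's median difference was -0.08, with 13 members positive and 15 negative. At an unadjusted p under 0.05 (limma) there were 9 of the 28, against 24% of all tested genes. Null arrays lay wholly above heterozygous arrays in 3 of the 28 and wholly below in 7, beside 16.3% and 14.6% of all tested probe sets. Both genes mark contractile cells more than the mesenchymal state as such.

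Partners of the 6 proteins showed 1 call among 7 genes, beside 3.46% of all tested genes. Twist proteins dimerise with the E proteins Tcf3, Tcf4 and Tcf12, and the Id proteins compete for those E proteins. All 7 of these genes were tested, all had negative differences, with a median of -0.38, and Id4 alone fell: 3.59, 2.94 and 2.20 in null arrays, against 4.96, 4.68 and 5.01 in heterozygous arrays. The fall was at least 3.69-fold when the null group is set at 3 (log2 difference -1.97, SE 0.36, limma adjusted p = 0.0471). It was not called in any fit without 1 array (0.0503 to 0.145). Its mean of 3.90 passed the minimum through the heterozygous arrays, and with no minimum the limma adjusted p was 0.0625. The E proteins had adjusted p values of 0.458, 0.94 and 0.788.

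Corepressors and chromatin partners, CtBP, LSD1 and NuRD subunits among them, had 0 of 25 called and 4 at an unadjusted p under 0.05 (limma), below the 24% of all tested genes. The median difference was 0.08, and Rcor3, a CoREST protein, had the smallest p (log2 difference -0.75, adjusted p = 0.121). Regulators of protein stability had 1 of 20 called, beside 3.46% of all tested genes. It was Fbxw7, the substrate-binding part of a ubiquitin ligase. It read 9.99, 10.38 and 10.05 in null arrays, against 8.98, 9.0 and 9.16 in heterozygous arrays, a fold of 2.13 (log2 difference 1.09, SE 0.18, limma adjusted p = 0.0377), and its other probe set also rose (1.48, adjusted p = 0.0272). Without single arrays the call of the brighter one held only without heterozygous replicate 3 (0.0458), and the other fits gave 0.0712 to 0.127. The dimmer one also held only without that array (0.0422), and its other fits gave 0.0546 to 0.093. The kinase and ligase genes best known to destabilise Snai1, Gsk3b and Btrc, did not pass.

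Genes of the signals that induce these factors had 0 of 33 called and 8 at an unadjusted p under 0.05 (limma), near the 24% of all tested genes, with a median difference of -0.11. Tgfb3, a TGF-beta ligand, came nearest: 8.20, 7.41 and 8.57 in null arrays, against 9.70, 9.84 and 9.59 in heterozygous arrays (log2 difference -1.65, SE 0.31, adjusted p = 0.0512). Other mesenchymal transcription factors had 0 of 15 called and 6 at an unadjusted p under 0.05, beside 24% of all tested genes, and the closest relatives of the 6 genes 0 of 2 called and 1 at that level. Snai3, Scrt1 and Scrt2 lay below 3, and Scx, the tendon factor scleraxis, gave -1.40 (limma adjusted p = 0.0931). Scx was called only without heterozygous replicate 3 (-1.75, adjusted p = 0.0397), and the other fits without 1 array gave 0.165 to 0.254. That array was the one of its group nearest to the null arrays, so the call without it is not read as support for a difference.

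Other genes reported as miR-200 targets, which share that link with Zeb1 and Zeb2, had 0 of 14 called and 3 at an unadjusted p under 0.05 (limma), near the 24% of all tested genes. The median difference was 0.03, with 8 members positive and 6 negative. Ets1, a transcription factor, had the smallest p, both here and among the other mesenchymal factors. It read 9.71, 10.23 and 9.58 in null arrays, against 8.77, 8.74 and 8.20 in heterozygous arrays (log2 difference 1.27, SE 0.26, adjusted p = 0.057). All 4 of its probe sets were higher in every null array, as were 16.3% of all tested probe sets, and those of the same gene are not independent. A dimmer probe set of Ets1 passed (1.66, limma adjusted p = 0.0308). Its call held only without heterozygous replicate 1 (0.0338) or 3 (0.0492), and the other fits without 1 array gave 0.0618 to 0.12. Across the 10 lists 5 of 166 distinct tested genes changed, 2 higher and 3 lower, a share near the 3.46% of all tested genes.

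**Figure D4:**
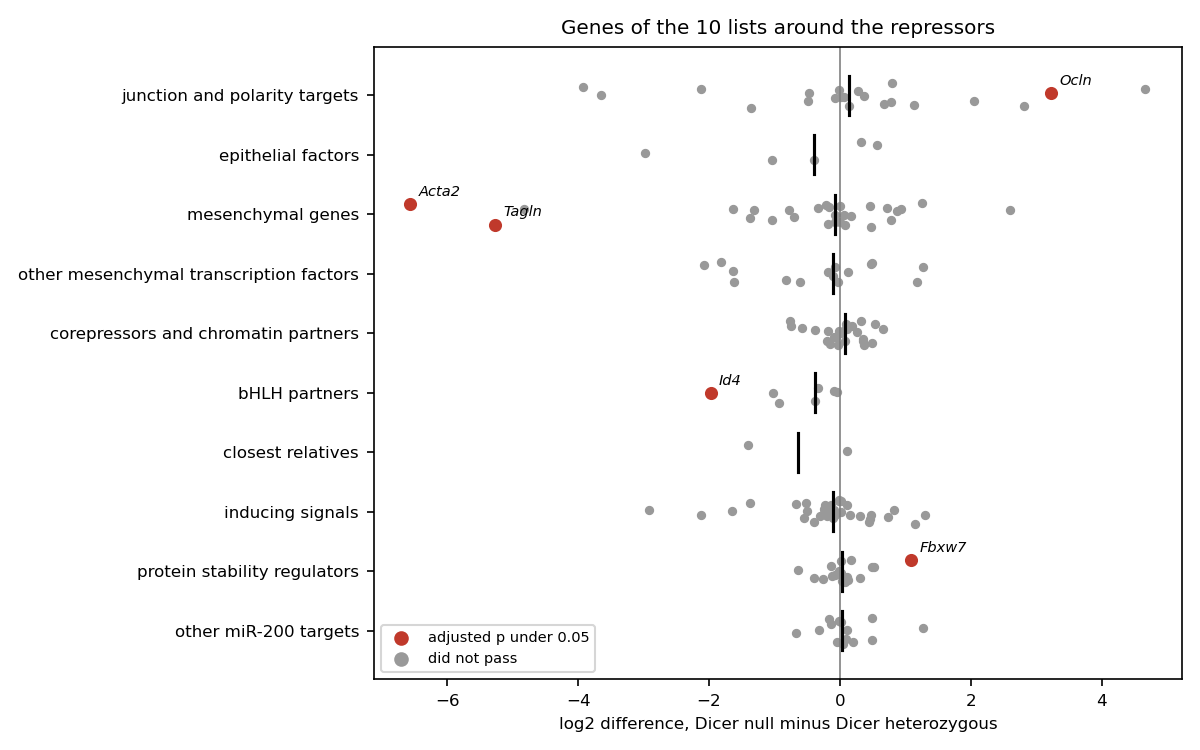
Log2 difference, Dicer null minus Dicer heterozygous, of every tested gene of the 10 lists, by its brightest tested probe set. Red points passed at a limma adjusted p under 0.05, grey points did not, and black bars are list medians. Ocln and Fbxw7 lie to the right of 0, and Acta2, Tagln and Id4 to the left.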

How the data were processed

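The authors deposited a table of log2 values per probe set, 1 column per sample. They came from GCRMA 2.20.0 under R 2.11.1, according to the submitters' processing notes. GCRMA models background from probe sequence, applies quantile normalization and combines the probes of a set. Settings were not given in the sources used here. Quantile normalization removes any overall shift between groups, and GCRMA compresses dim probe sets, so differences below a value of about 3 depend on the background model.

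The platform annotation covers 45037 probe sets. Names were taken only from the 34945 with a single symbol, leaving out 932 with more and 9160 without. Entrez IDs of 34741 matched the GRCm38.p6 gene table, which changed 0 symbols. A mean of at least 3 over the 6 arrays left 24385 probe sets. These were fitted in limma 3.58.1 (R 4.3.3) with lmFit and eBayes, two-sided, without a block, and p-values were adjusted by Benjamini-Hochberg over all of them. On simulated data with independent normal noise the script's median estimates lay near the known changes. How often changes of a given size were called there is not reported here. A gene is given by its brightest tested probe set. Folds written "at least" set the group below 3 at 3. Pair contrasts used exact permutation tests (scipy 1.17.1), and figures matplotlib 3.10.9.

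The 6 genes, the 10 lists and the marker lists came from general knowledge and were chosen with earlier results of these data known. Named were all members, up to 6 called genes of each list or else the gene with the smallest p, the highest gene of each marker list, the 3 genes most alike for each member that ranged over at least 1 log2 unit, Nr6a1 and Dicer1. Further genes are named as background or as chosen after their values were seen. Promoter and microRNA sequences are RefSeq's. Alternatives were minimums of 2 and 4 or none, trend or robust moderation, ordinary t statistics, quantile normalization again, centred arrays, array weights, a block for replicate number, the mean of a gene's probe sets, and each array left out in turn. Nothing in the labels gives a batch.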

Additional observations from a re-analysis of the deposited data

How the results depend on the processing

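The count of 0 called member probe sets held under every alternative run except array weights, where limma called 4 of 12: 2 of Zeb2 (0.46 and 0.78), Snai1 (-0.68) and Twist2 (0.41), at adjusted p of 0.0362 to 0.0471, while Zeb2's brightest gave 0.28 (0.197). In that fit 28.2% of all tested probe sets were called, and its weight estimate stopped with a warning before convergence. Signs of small differences turned: Snai2's brightest probe set to -0.067 with array weights, and Twist1 to 0.081 with array weights and 0.053 with centred arrays. Without 1 array the brightest probe sets ranged from 0.54 to 0.82 for Zeb2, -0.42 to -0.06 for Zeb1, -0.83 to -0.15 for Snai1, -0.043 to 0.31 for Snai2, -0.11 to 0.13 for Twist1 and 0.34 to 0.59 for Twist2. With the mean of a gene's tested probe sets Zeb2 gave 0.83 (limma adjusted p = 0.0664). Over all probe sets 756 were called, against 6875 with array weights, 0 with ordinary t statistics (where 4873 had an unadjusted p under 0.05) and 45 to 857 without 1 array. Of the list genes 5 were called, against 50 with array weights, 11 with trend moderation, 3 with no minimum, 0 with ordinary t statistics (36 at an unadjusted p under 0.05) and 1 to 8 without 1 array. Cd68 turned to 0.0040 with array weights, and Krt19 ranged from -0.28 to 1.80 without 1 array. The causes were not tested.

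Same-numbered arrays deviated from their group means with correlations of -0.06, 0.11 and 0.24. The labels link them only by the replicate number, and whether they share a batch was not tested. With that number as a replicate block limma called 116 probe sets, 1 list gene and 0 member probe sets. The brightest probe set of Zeb2 gave 0.65 (limma adjusted p = 0.121). The best match of an array was its own number for 3 of 6. Signal over background limits the dim probe sets: 2 of the 14 lay below it.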
